A study of Mus musculus with 28 samples.

Results

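A set of 38 mouse Hox cluster genes was followed here through the H3K27ac peak tables of male germ cells: 10 genes of the HoxA cluster, 10 of HoxB, 9 of HoxC and 9 of HoxD, taken by name, whatever their acetylation. A transcription start was listed in the peak tables for 36 of them, and for 30951 genes in all. Hoxb6 and Hoxc12 had no listed start. Of 471458 H3K27ac peaks in 12 libraries, 353 were listed under a Hox gene, alone or with others. These peaks named 32 of the 38 genes, and Hoxa2, Hoxa11, Hoxb1, Hoxc12, Hoxd11 and Hoxd12 were named by none. In the 16 input libraries, which were prepared without an antibody, 0 peaks were listed under a Hox gene.

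Hox genes encode homeodomain transcription factors that set the identity of body segments and limbs along the head-to-tail axis. They lie in 4 clusters, and genes with the same number in different clusters (paralogs) descend from 1 ancestor. The order of the genes in a cluster follows the order of the body regions in which they act, low numbers towards the head and high numbers towards the tail. In cells that do not use them, the clusters are a classic target of the Polycomb complexes, which place H3K27me3 on the same lysine that carries H3K27ac at active promoters and enhancers. SCML2 is a Polycomb protein of the male germline.

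H3K27ac was mapped with ChIPmentation, in which a transposase adds the sequencing adapters to chromatin held on the antibody. The mice were on a C57BL/6 background, and cells came from the testis, by magnetic sorting or by sedimentation through an albumin gradient. There were 6 groups of 2 libraries: Thy1+ spermatogonia (undifferentiated, mitotic) and c-Kit+ spermatogonia (differentiating) of postnatal day 7 pups, each from wild type (WT) and from Scml2-KO mice, and pachytene spermatocytes (PS, in meiosis) and round spermatids (RS, after meiosis) of adult Scml2-KO mice. WT libraries of PS and RS were not analysed here for H3K27ac. Genotypes were therefore compared in spermatogonia alone, every comparison with PS or RS was made in the knockout, and stage cannot be told apart from age or from the way the cells were isolated. The labels do not say whether replicates were separate animals, so each p-value measures the spread between these samples, and loss of Scml2 itself was not measured in these tables.

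Each value below is the fold enrichment of a peak, the height of its read pileup over the library's uniform background, with 1 added to each. A promoter was counted as called where a peak came within 1 kb of a listed start, and its value is that of the highest such peak. A promoter without a peak lies below the authors' threshold and has no value, and the tables hold no read counts, so the depth behind each value is unknown. The libraries held 17877 to 73316 peaks, and the adult libraries held the most. Across all genes, the median promoter peak ranged from 6.41 (c-Kit+ KO replicate 2) to 12.3 (PS KO replicate 2). Thy1+ KO replicate 1 stood apart at the Hox clusters: it held 68 Hox peaks where its replicate held 24, and 29 of the 94 separate Hox regions (30.9%, against 4.22% of all 129187 regions) were called in that library alone. The main counts that rest on it are given with and without it, and without it there were 65 Hox regions.

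The promoter sequences of HoxD are shown first, since this cluster held the Hox promoters that were called in every library. For each of 6 genes, the 250 bases before the RefSeq start are given (build GRCm38.p6, plus strand), with CG dinucleotides in capitals. Hoxd13 (chr2:74667975-74668224) and Hoxd12 (chr2:74674763-74675012) were called in no library. Hoxd10 (chr2:74691641-74691890) was called in 11 libraries, and Hoxd9 (chr2:74697513-74697762), Hoxd8 (chr2:74704365-74704614) and Hoxd3 (chr2:74711743-74711992) were called in 12. Of the 94 Hox regions, 4 (4.26%) were called in all 12 libraries, against 7.15% of all regions, and 3 of these 4 lie at those promoters.
Hoxd13: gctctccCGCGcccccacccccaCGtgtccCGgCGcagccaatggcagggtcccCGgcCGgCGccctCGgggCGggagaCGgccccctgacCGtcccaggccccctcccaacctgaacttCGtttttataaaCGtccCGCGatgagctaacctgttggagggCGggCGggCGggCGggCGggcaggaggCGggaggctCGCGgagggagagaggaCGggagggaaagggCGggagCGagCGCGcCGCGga
Hoxd12: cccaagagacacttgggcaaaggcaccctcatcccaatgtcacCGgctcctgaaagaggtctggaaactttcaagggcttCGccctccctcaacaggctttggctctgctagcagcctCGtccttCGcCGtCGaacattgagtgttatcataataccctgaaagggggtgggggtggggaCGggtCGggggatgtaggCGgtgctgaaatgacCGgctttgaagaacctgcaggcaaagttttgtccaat
Hoxd10: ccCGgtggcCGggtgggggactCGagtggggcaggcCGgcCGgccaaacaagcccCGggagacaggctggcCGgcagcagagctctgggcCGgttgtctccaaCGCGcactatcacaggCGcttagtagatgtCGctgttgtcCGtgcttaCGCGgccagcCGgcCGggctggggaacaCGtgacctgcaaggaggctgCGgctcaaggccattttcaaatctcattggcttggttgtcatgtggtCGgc
Hoxd9: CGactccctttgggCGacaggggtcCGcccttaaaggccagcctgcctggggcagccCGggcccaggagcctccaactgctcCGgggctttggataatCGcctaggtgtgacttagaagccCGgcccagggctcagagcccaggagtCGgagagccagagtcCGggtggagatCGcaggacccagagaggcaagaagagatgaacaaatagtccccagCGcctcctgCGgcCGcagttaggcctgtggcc
Hoxd8: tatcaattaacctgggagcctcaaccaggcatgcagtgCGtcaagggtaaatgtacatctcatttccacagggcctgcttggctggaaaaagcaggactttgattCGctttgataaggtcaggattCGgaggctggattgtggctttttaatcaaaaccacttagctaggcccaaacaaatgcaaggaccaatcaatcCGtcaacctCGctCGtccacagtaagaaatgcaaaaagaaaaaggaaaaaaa
Hoxd3: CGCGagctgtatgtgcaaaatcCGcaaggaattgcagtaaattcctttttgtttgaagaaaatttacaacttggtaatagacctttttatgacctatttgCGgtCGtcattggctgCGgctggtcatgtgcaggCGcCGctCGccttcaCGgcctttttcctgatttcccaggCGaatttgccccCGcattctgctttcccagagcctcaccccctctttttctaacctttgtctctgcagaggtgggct

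These stretches held 31 CG dinucleotides at Hoxd13, 10 at Hoxd12, 20 at Hoxd10, 13 at Hoxd9, 6 at Hoxd8 and 12 at Hoxd3. Among these 6 genes alone, the most CG-rich was never called and the least CG-rich was always called. RefSeq's promoter table (250 bases before to 50 after a start) matched 22 Hox genes with 24 promoters. Their median CG count was 14.5 (range 4 to 45), against 7.0 over 32851 promoters of all genes, and their median G+C content was 57.7% against 52.7%. The 5 Hox promoters called in at least 6 libraries had a median of 20.0 CG dinucleotides (range 6 to 22), and the other 19 had a median of 13 (range 4 to 45). The ranges overlapped.

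Short motifs were searched on both strands of the same windows, as a description. CCAAT was present in 62.5% of the 24 Hox promoters and in 37.4% of all promoters. GGGCGG was present in 41.7% against 35.7%, and TATAAA in 16.7% against 13.6%. TTTATNA, a form bound by posterior Hox and Cdx proteins that can overlap TATAAA, was present in 25% against 14.1%. TGATNNAT, a form bound by Hox proteins together with Pbx, was present in 16.7% against 8.85%.

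Few Hox promoters were called in every library, and those lay in HoxD. Of the 36 promoters that could be scored, 22 had a peak in at least 1 library and 14 (38.9%) in none, close to the 37.5% of all genes called in none. Hoxd3, Hoxd8 and Hoxd9 were called in all 12 libraries (8.33%, against 32.6% of all genes), Hoxd10 in 11, Hoxb9 in 8, Hoxb4 in 7 and Hoxa4 in 5. Hoxb7, Hoxc5, Hoxc8, Hoxc9 and Hoxc10 were called in 3 libraries, and Hoxa3, Hoxa5, Hoxb5 and Hoxc4 in 2. Another 6 promoters were called in a single library: Hoxa6, Hoxa7, Hoxa10 and Hoxc6 in Thy1+ KO replicate 1, and Hoxa13 and Hoxd1 in PS KO replicate 2. Without Thy1+ KO replicate 1, 18 promoters were called somewhere and 18 nowhere.

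**Figure D1:**
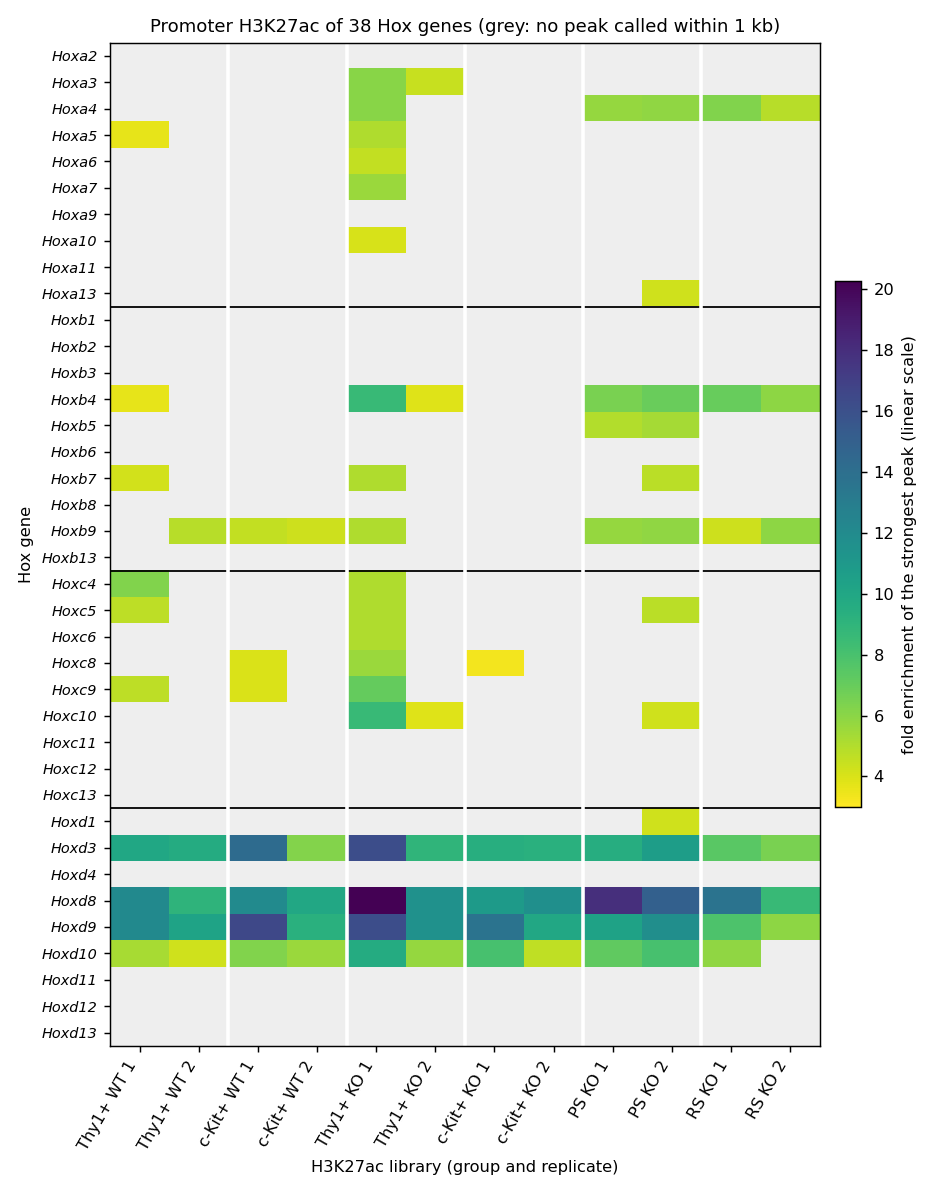
Fold enrichment of the promoter peak of each Hox gene (rows, by cluster) in each of the 12 H3K27ac libraries (columns, by group), with grey cells where no peak was called within 1 kb of a listed start (Hoxb6 and Hoxc12 had no listed start). Hoxd3, Hoxd8 and Hoxd9 are coloured in all 12 columns, and Thy1+ KO replicate 1 has the most coloured cells, 19.

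HoxD gave 48 of the 96 promoter calls over genes and libraries, from 5 of its 9 genes. HoxB gave 20 calls from 4 genes, HoxC 15 from 6 genes and HoxA 13 from 7 genes. Without Thy1+ KO replicate 1 these counts were 44, 17, 9 and 7. By position along the axis, the 7 anterior genes scored (groups 1 to 3) were called in 15 of 84 gene-by-library cells (17.9%), the 14 central genes (groups 4 to 8) in 42 of 168 (25%) and the 15 posterior genes (groups 9 to 13) in 39 of 180 (21.7%). Without Thy1+ KO replicate 1 the shares were 16.9%, 20.1% and 20.0%. Within the posterior part, the calls lay in group 9 (23 of 48 cells) and group 10 (15 of 36), while groups 11 and 12 had none and group 13 had 1 of 48. Group 2 also had none.

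Hoxd8, which acts in the trunk, had the highest promoter enrichment of the family by its mean over the 12 libraries, while Hoxd9 had the higher mean in Thy1+ WT, c-Kit+ WT and c-Kit+ KO. Its values were 12.1 and 9.05 in Thy1+ WT, 12 and 9.92 in c-Kit+ WT, 20.3 and 11.5 in Thy1+ KO, 10.9 and 11.7 in c-Kit+ KO, 17.9 and 14.9 in PS and 13.7 and 8.66 in RS. Thy1+ KO replicate 1 and the PS libraries were the highest 3, and the remaining values overlapped among all groups. The group means were 10.6 ± 2.12, 10.9 ± 1.45, 15.9 ± 6.18, 11.3 ± 0.554, 16.4 ± 2.12 and 11.2 ± 3.56 in the same order (SD, n = 2 each).

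Hoxd9, which patterns the forelimb and the motor neurons that serve it, had promoter values of 12.1 and 10.3 in Thy1+ WT, 16.5 and 9.30 in c-Kit+ WT, 16.2 and 11.5 in Thy1+ KO, 13.7 and 9.91 in c-Kit+ KO, 10.3 and 11.7 in PS and 7.82 and 5.95 in RS. The RS values were the lowest 2 of the 12 and did not overlap any other group. The group means were 11.2 ± 1.27, 12.9 ± 5.11, 13.9 ± 3.32, 11.8 ± 2.69, 11 ± 1.01 and 6.89 ± 1.32 (SD, n = 2 each).

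Hoxd3, which shapes the uppermost vertebrae, had values of 9.96 and 9.65 in Thy1+ WT, 14.3 and 6.20 in c-Kit+ WT, 16.2 and 8.95 in Thy1+ KO, 9.46 and 9.33 in c-Kit+ KO, 9.53 and 10.7 in PS and 7.43 and 6.49 in RS. The c-Kit+ WT replicates lay further apart than most groups did, and 1 of them was below both RS values. The RS mean was 6.96 ± 0.665 and the other group means ran from 9.39 ± 0.0919 (c-Kit+ KO) to 12.6 ± 5.12 (Thy1+ KO; SD, n = 2).

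Hoxd10, which acts in the hindlimb and its motor neurons, had lower promoter peaks. They reached 5.24 and 4.22 in Thy1+ WT, 6.27 and 5.58 in c-Kit+ WT, 9.62 and 5.76 in Thy1+ KO, 8.04 and 4.66 in c-Kit+ KO, 7.24 and 8.00 in PS and 5.87 in RS replicate 1. No peak was called there in RS replicate 2. Across the 4 promoters the order of the 12-library means was Hoxd8, Hoxd9, Hoxd3, Hoxd10, and the ranges of Hoxd8, Hoxd9 and Hoxd3 overlapped.

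Within a library, the Hoxd8 peak was higher than 32.4 to 79.6% of all called promoters, Hoxd9 than 16.7 to 87.0%, Hoxd3 than 20.0 to 78.5% and Hoxd10 than 2.39 to 34.4%. The other Hox promoters stood above at most 23.2% of called promoters in any library. The lists differ in length, so these shares describe each library and show no change between them.

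**Figure D2:**
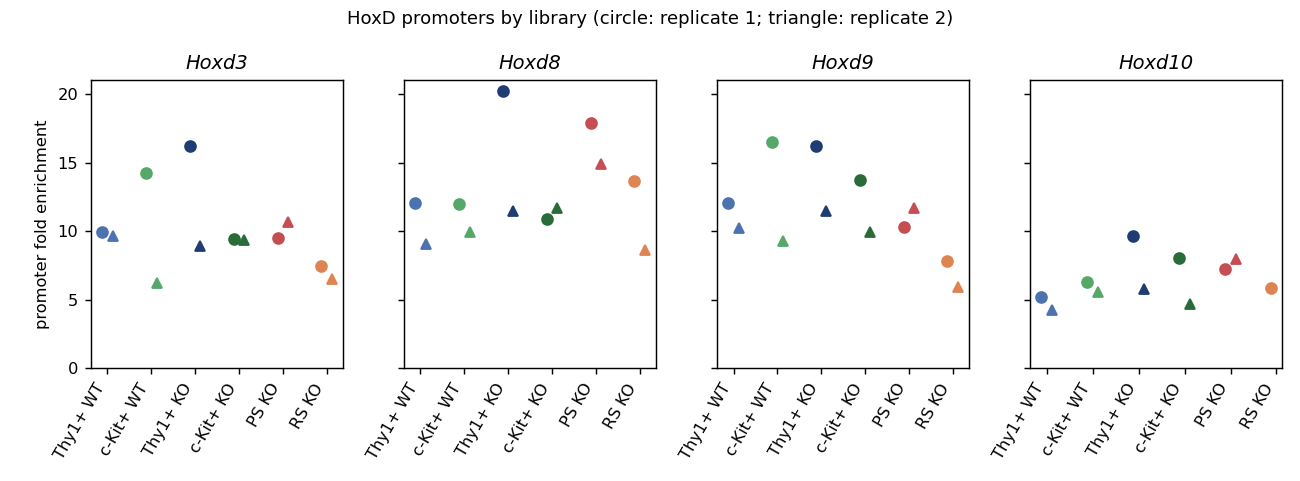
Promoter fold enrichment (y axis) of Hoxd3, Hoxd8, Hoxd9 and Hoxd10 by group (x axis), 1 point per library (circles replicate 1, triangles replicate 2). The Hoxd9 points of RS, 7.82 and 5.95, lie below every other Hoxd9 point, and the Hoxd8 points of PS, 17.9 and 14.9, are exceeded only by Thy1+ KO replicate 1.

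The promoter peaks at Hoxd8 and Hoxd9 were wider than the median Hox peak, which spanned 230 to 397 bases by library. At Hoxd3, single peaks spanned 322 bases in RS replicate 2 and 1876 in PS replicate 1. The highest Hoxd8 promoter peak spanned 881 to 2540 bases over the 12 libraries and that of Hoxd9 480 to 2501 bases. The acetylated stretch at Hoxd9 ran past the gene towards Hoxd8: the merged region at chr2:74696654-74701139 was called in all 12 libraries and was also listed under Hoxd3, Hoxd4 and Hoxd8. The next regions, at the Hoxd8 start (chr2:74703802-74706605) and at the Hoxd3 start (chr2:74710961-74712960), were called in all 12 libraries as well.

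Some other HoxD regions were higher or more often called in adult libraries, which held more peaks of every kind. Of 90 Hox regions of the knockout, 3 (3.33%, against 5.31% of all regions) were called in every adult and no spermatogonia library. In an intron of Hoxd3, a region at chr2:74714266-74716538, which also held peaks listed under 1700109F18Rik, had 9.53 and 12.8 in PS and 7.43 and 4.87 in RS. The same region had 3.42 and 4.34 in c-Kit+ WT, 5.06 and 4.48 in Thy1+ KO, 4.73 in c-Kit+ KO replicate 1, and no peak in Thy1+ WT or c-Kit+ KO replicate 2. The PS values were above all spermatogonia values, and RS replicate 2 (4.87) was below Thy1+ KO replicate 1 (5.06). A region towards the far end of Hoxd3 (chr2:74745854-74746530) was called in the 4 adult libraries only, at 4.58 and 4.27 in PS and 4.69 and 4.33 in RS. Upstream of Hoxd1, a gene of sensory neurons, a region at chr2:74752596-74753877 had 5.34 and 9.06 in PS, 8.61 and 7.03 in RS and 4.72 in Thy1+ WT replicate 1.

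The posterior end of HoxD was bare. Hoxd11, Hoxd12 and Hoxd13, which pattern forearm and digits, had no promoter peak in any library, and 1 peak each in the PS libraries (4.19 and 5.33) was listed under Hoxd13. Hoxd4, a gene of the neck vertebrae, had no promoter peak and was named in 6 libraries, at 3.62 to 6.84. Beyond the cluster, the ubiquitous neighbours Lnpk and Mtx2 had promoter peaks in all 12 libraries, at 6.41 to 37.9 and 10.9 to 26.1.

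**Figure D3:**
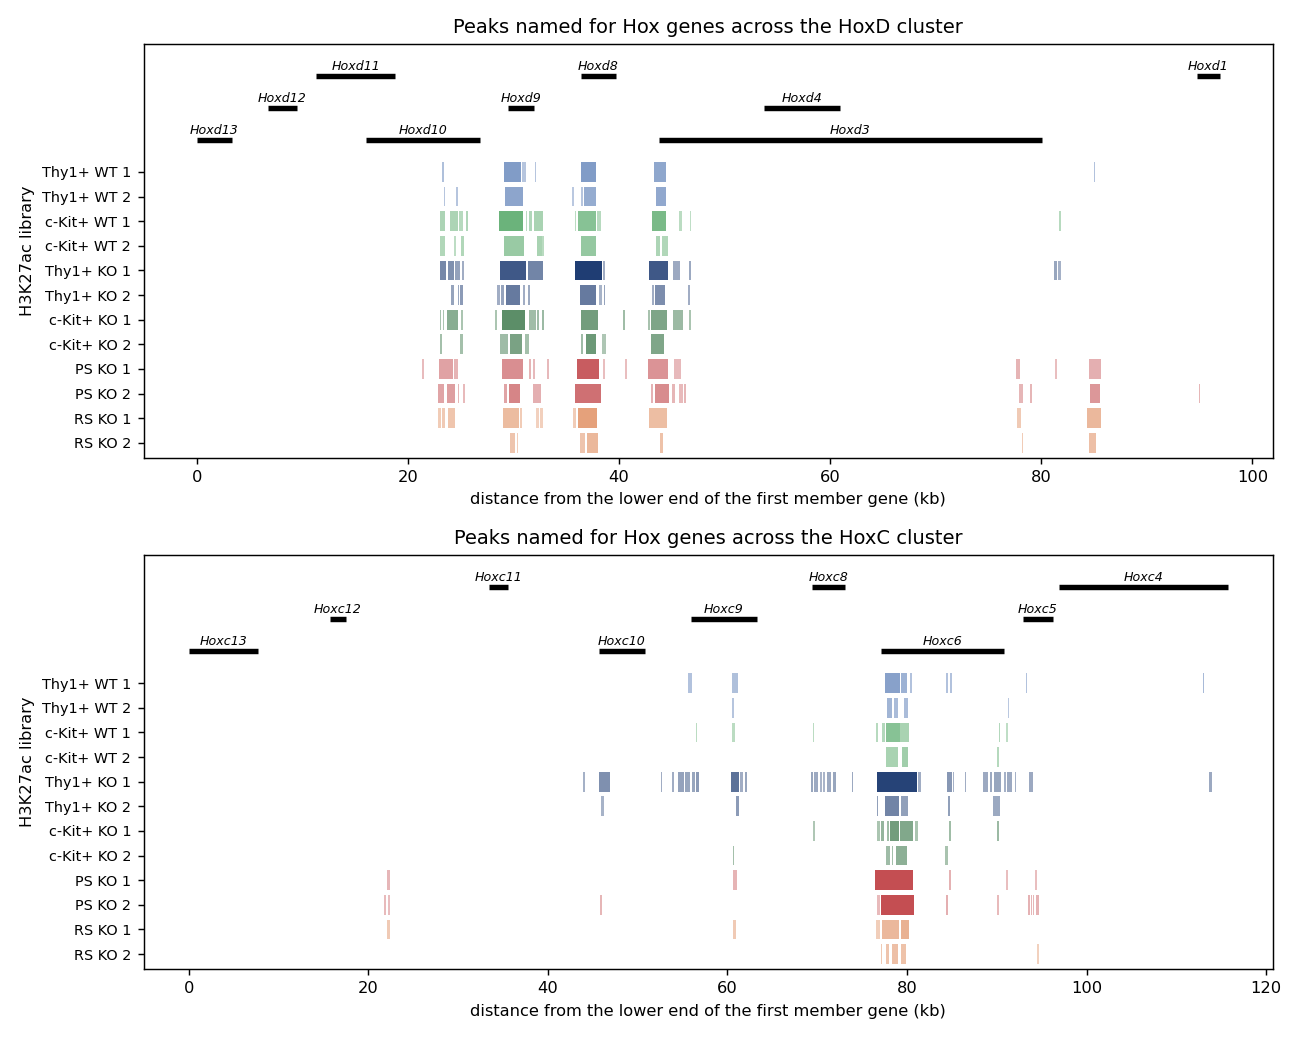
Peaks listed under Hox genes in HoxD (top) and HoxC (bottom), drawn as bars by distance in kb from the lower end of each cluster, darker for higher fold enrichment, with 1 row per library and the genes as black lines. In HoxD the bars of all 12 rows stack over Hoxd9, Hoxd8 and Hoxd3, and in HoxC they stack over 1 stretch at the lower end of Hoxc6.

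In HoxC, the steady signal was a block rather than a listed promoter. The region chr15:102997604-103002660, listed under Hoxc6 and Hoxc5, was called in all 12 libraries and covers the 5′ end of Hoxc6 as RefSeq places it (from 102998226), while the start listed in the peak tables is 103009562. Hoxc6 acts in motor neurons at limb level and in the mammary gland. The block reached 11 and 7.24 in Thy1+ WT, 12 and 8.06 in c-Kit+ WT, 19.2 and 10.2 in Thy1+ KO, 10.9 and 7.58 in c-Kit+ KO, 20.2 and 20.3 in PS and 10.2 and 7.03 in RS. The PS values were the highest 2 of the 12, Thy1+ KO replicate 1 was next, and all other values lay at or below 12. The covered length was 4214 and 4018 bases in PS and 3164 and 1792 bases in RS. Within a library it stood above 50.1 to 91.3% of all regions.

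The listed HoxC promoters were called in 3 libraries or fewer. Hoxc10, a gene of lumbar motor neurons, had 8.61 and 3.84 in Thy1+ KO and 4.27 in PS replicate 2. Hoxc9, which sets thoracic motor neuron identity, had 4.72 in Thy1+ WT replicate 1, 3.99 in c-Kit+ WT replicate 1 and 7.09 in Thy1+ KO replicate 1. Hoxc5 had 4.72 in Thy1+ WT replicate 1, 5.06 in Thy1+ KO replicate 1 and 4.80 in PS replicate 2. Hoxc8, of the brachial level, had 3.99 in c-Kit+ WT replicate 1, 5.57 in Thy1+ KO replicate 1 and 3.31 in c-Kit+ KO replicate 1. Except for Hoxc10 in Thy1+ KO, no listed HoxC promoter was called in both libraries of a group. Hoxc4 had 6.29 in Thy1+ WT replicate 1 and 5.06 in Thy1+ KO replicate 1, and Hoxc6 had 5.06 in the latter.

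A region in the body of Hoxc9 (chr15:102981485-102982433) was called in 8 libraries. It had 5.24 and 4.22 in Thy1+ WT, 12.7 and 7.03 in Thy1+ KO, 3.99 in c-Kit+ WT replicate 1, 4.66 in c-Kit+ KO replicate 2, 4.58 in PS replicate 1 and 4.69 in RS replicate 1. Both Thy1+ KO values were above the other 6. Hoxc13, the hair follicle gene at the end of the cluster, had no promoter peak, and its most often called region (chr15:102746429-102747743, 9 libraries) lies far outside the cluster.

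In HoxB, the promoters of Hoxb4 and Hoxb9 were called in all 4 adult libraries and in part of the spermatogonia. Hoxb4, known from blood stem cells, had 6.48 and 6.93 in PS, 7.04 and 5.95 in RS, 8.61 and 3.84 in Thy1+ KO and 3.67 in Thy1+ WT replicate 1. No c-Kit+ library had a peak at the Hoxb4 promoter. Hoxb9, of the thoracic level, had 5.72 and 5.86 in PS, 4.30 and 5.95 in RS, 4.56 and 4.34 in c-Kit+ WT, 4.83 in Thy1+ WT replicate 2 and 5.06 in Thy1+ KO replicate 1. Neither c-Kit+ KO library had one. Hoxb7 had 4.19 in Thy1+ WT replicate 1, 5.06 in Thy1+ KO replicate 1 and 4.80 in PS replicate 2. Hoxb5, a gene of enteric nerve precursors, had 4.96 and 5.33 in PS and no peak elsewhere.

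Of the remaining HoxB genes, those with a listed start had no promoter peak. Hoxb3 was named by peaks in 7 libraries, at most 8.61 (Thy1+ KO replicate 1), and Hoxb2, of the hindbrain, in 3 libraries: Thy1+ KO, at 5.57 and 5.12, and c-Kit+ WT replicate 1, at 3.99. Hoxb6 was named only in PS, at 3.81 and 5.33, Hoxb8 only in Thy1+ KO replicate 1, at 3.54, and Hoxb13, a gene of the prostate, only in RS replicate 1, at 4.30.

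HoxA peaks were mostly those of Thy1+ KO replicate 1 and of the adult cells. Hoxa4, whose transcripts have long been known from male germ cells, had 5.72 and 5.86 in PS, 6.26 and 4.87 in RS and 6.08 in Thy1+ KO replicate 1. No other spermatogonia library had a peak at the Hoxa4 promoter. Hoxa3, a gene of the pharyngeal organs, had 6.08 and 4.48 in Thy1+ KO and no promoter peak elsewhere. Its listed start (52213067) lies between Hoxa6 and Hoxa7. Away from that start, a region in an exon of Hoxa3 (chr6:52169849-52170852) had 5.34 and 7.46 in PS and 4.30 in RS replicate 1. Hoxa5, which acts in the airways, had 3.67 in Thy1+ WT replicate 1 and 5.06 in Thy1+ KO replicate 1. Hoxa7 had 5.57, Hoxa6 4.56 and Hoxa10, a gene of the uterus, 4.05, all in Thy1+ KO replicate 1. Hoxa13, of digits and genital tract, had 4.27 in PS replicate 2. Hoxa9 had no promoter peak and was named in Thy1+ KO replicate 1 only, at 6.58.

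The clusters differed in how much of their length was covered. HoxD (96.92 kb) was covered over 4.37 to 13.7% of its length, HoxC (115.7 kb) over 1.62 to 13.9%, HoxB (173.9 kb) over 0.088 to 3.13% and HoxA (98.46 kb) over 0.0 to 3.71%. HoxA was at 0.0% in the 4 c-Kit+ libraries, at 0.146 and 0.226% in Thy1+ WT, at 3.37 and 0.543% in Thy1+ KO, at 2.26 and 3.71% in PS and at 2.07 and 0.794% in RS. All 4 adult libraries were above every spermatogonia library but Thy1+ KO replicate 1 in HoxA and HoxB. Their peaks also covered more of the whole genome, at least 41.1 Mb, against at most 24.2 Mb in spermatogonia libraries. Whether the order in HoxA and HoxB goes beyond that wider coverage was not tested. HoxC was the one cluster where Thy1+ KO replicate 1 (13.9%) was far above all others, of which the next was PS replicate 2 (5.09%).

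**Figure D4:**
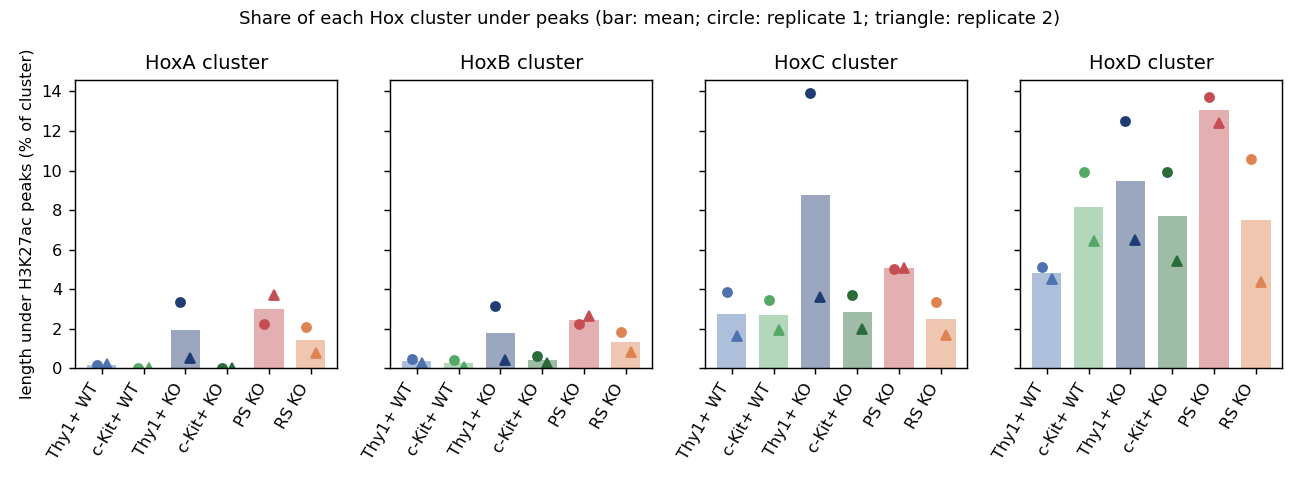
Percent of each Hox cluster's length covered by H3K27ac peaks in each of the 12 libraries (1 point per library; circles replicate 1, triangles replicate 2; bars are group means). In HoxC, Thy1+ KO replicate 1 lies at 13.9% and its replicate at 3.60%, and in HoxA the 4 c-Kit+ libraries lie at 0.0%.

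Within the 4 clusters together, peaks under any name covered 8.68 ± 2.48 kb per library in Thy1+ WT, 11.5 ± 4.06 kb in c-Kit+ WT, 24.4 ± 17.9 kb in Thy1+ KO, 11.5 ± 4.98 kb in c-Kit+ KO, 25.7 ± 0.639 kb in PS and 13.9 ± 7.82 kb in RS (SD, n = 2 each). The adult libraries held 18 to 50 Hox peaks among 63322 to 73316 peaks, and the spermatogonia libraries 14 to 68 among 17877 to 36362. The adult libraries thus had more peaks in all, while the counts of Hox peaks overlapped.

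The first comparison asked whether Hox acetylation differed between Scml2-KO and WT spermatogonia. In Thy1+ cells, 4 Hox promoters were called in both WT libraries (11.1% of 36; 36.7% of all genes) and 7 in both KO libraries (19.4%; 39.4% of all genes). The 3 additional genes were Hoxa3, Hoxb4 and Hoxc10. Hoxa3 and Hoxc10 were called in both KO libraries and in neither WT library, with the values given above, and Hoxb4 was also called in WT replicate 1. Single libraries overlapped between the genotypes: WT replicates had 10 and 5 promoters called and KO replicates 19 and 7, so without KO replicate 1 the KO count lay between the WT counts. Of 64 Hox regions, 6 (9.38%) had a peak in each KO library and in neither WT library, against 5.10% of all regions, and 0 showed the reverse pattern, against 0.188%. These 6 lay at Hoxa3, Hoxb2, Hoxc6, Hoxc10, Hoxd3 and Hoxd8. With KO replicate 1 left out the first count was also 6, but the rule then asks for KO replicate 2 alone, so the count could hardly fall. With the same number of strongest peaks from each library it was 2.

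Peak heights at regions called in all 4 Thy1+ libraries were compared with limma, on log2 fold enrichment centred on each library's median, with Benjamini-Hochberg adjustment over all regions tested. Of 5 Hox regions, 0 had an adjusted p under 0.05 (0.00923% of all 10835 regions did), and 1 Hox region and 559 of all regions had an unadjusted p under 0.05. That Hox region was the one in the body of Hoxc9, at 5.24 and 4.22 in WT and 12.7 and 7.03 in KO. The groups did not overlap, and the log2 difference was 0.47 (SE 0.214, limma adjusted p = 0.950). The regions at Hoxc5 and Hoxc6 (0.12), Hoxd9 (-0.24), Hoxd8 (0.01) and Hoxd3 (-0.24) differed by less. On the pileup height divided by the background and without centring, a scaling added after seeing the data, the Hoxc9 difference was 1.14 (SE 0.293, limma adjusted p = 0.0102), and 16.6% of all regions were called.

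In c-Kit+ cells, 5 Hox promoters were called in both WT libraries (13.9%; 36.9% of all genes) and 4 in both KO libraries (11.1%; 37.5% of all genes). The gene that differed was Hoxb9, at 4.56 and 4.34 in WT and uncalled in KO. Of 23 Hox regions, 1 (Hoxb9) was called in both WT libraries only, against 0.520% of all regions, and 1 (near Hoxc5 and Hoxc6) in both KO libraries only, against 2.23%. Of 7 Hox regions tested with limma, 0 had an adjusted p under 0.05 (0.0% of all 11313 regions did), with 1 Hox region and 543 of all regions at an unadjusted p under 0.05. The median log2 difference of the 7 was -0.19, beside -0.07 over all regions. The 2 regions with the largest differences were at Hoxd10 (5.93 ± 0.488 in WT and 4.46 ± 0.288 in KO) and from within Hoxd9 to past its end (6.83 ± 0.0147 and 5.17 ± 0.715; SD, n = 2), at -0.48 each (limma adjusted p = 0.941).

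With both kinds of spermatogonia in 1 limma fit, 4 Hox regions could be tested and 0 differed by genotype (0.0% of all 9585 regions; 0 Hox and 502 of all regions at an unadjusted p under 0.05). The estimates were 0.00 at the Hoxc6 block, -0.17 at the merged Hoxd9 region, 0.02 at Hoxd8 and -0.13 at Hoxd3. The test of whether the genotype difference itself changed from Thy1+ to c-Kit+ cells also called 0 of the 4 (0.0% of all regions; 0 Hox and 453 of all regions at an unadjusted p under 0.05).

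The next comparison was between the kinds of spermatogonia within a genotype. In WT, 2 of 30 Hox regions (6.67%, against 5.07% of all regions) had peaks in both c-Kit+ libraries and in neither Thy1+ library, at Hoxc6 and Hoxd3, and 0 showed the reverse, against 1.20%. In KO, 4 of 62 (6.45%, against 2.85%) were called in both Thy1+ libraries only, at Hoxa3, Hoxb2, Hoxb4 and Hoxc10, and 0 in both c-Kit+ libraries only, against 2.86%. With Thy1+ KO replicate 1 left out these counts were 4 and 1, but the rule then asks less, so they could hardly fall. With the same number of strongest peaks they were 1 and 0. With limma, 0 of 6 Hox regions differed in WT (0.216% of all regions, 0.167% higher and 0.0491% lower) and 0 of 6 in KO (0.0% of all 11134 regions; 1255 at an unadjusted p under 0.05). On height over background without centring, 2 of the 6 in KO were lower in c-Kit+ cells, both at Hoxc5 and Hoxc6 (adjusted p = 0.0200), where 48.5% of all regions were called.

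From c-Kit+ spermatogonia to pachytene spermatocytes of the knockout, more Hox promoters were called, in libraries that held more peaks of every kind. The promoters of Hoxa4, Hoxb4, Hoxb5 and Hoxb9 were called in both PS libraries and in neither c-Kit+ library. In PS, 8 Hox promoters were called in both libraries (22.2%; 51.2% of all genes). Of 51 Hox regions, 14 (27.5%, against 22.1% of all regions) were called in every PS library and no c-Kit+ KO library, and 0 the other way round, against 0.851%. The first share is near that of all regions, and with the same number of strongest peaks from each library the count of 14 was 0. Of 7 Hox regions called in all 4 libraries, 5 were lower in PS relative to the library median, with a limma adjusted p under 0.05 (25.1% of all 12501 regions were called lower, 6.83% higher and 31.9% either way).

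The fold enrichments themselves overlapped between the stages in 3 of the 5. Hoxd9 had 13.7 and 9.91 in c-Kit+ KO and 10.3 and 11.7 in PS, and the centred log2 difference was -1.16 (SE 0.190, adjusted p = 0.000780). Hoxd3 had 9.46 and 9.33 against 9.53 and 10.7, a centred difference of -0.97 (SE 0.200, adjusted p = 0.00286). Hoxd10 had 8.04 and 4.66 against 7.24 and 8.00, a difference of -0.76 (SE 0.206, adjusted p = 0.0128). Of these, Hoxd9 and Hoxd10 overlapped between the stages and Hoxd3 was slightly higher in both PS libraries. A second Hoxd9 region, also listed under Hoxd8 and Hoxd3, had 5.20 and 4.66 against 4.58 and 5.33 (-1.07, SE 0.194, adjusted p = 0.00137). The region outside HoxC listed under Hoxc13 had 6.15 and 6.41 against 5.72 and 4.27 (-1.42, SE 0.225, adjusted p = 0.000646), and was the one of the 5 whose PS values were both below the c-Kit+ values.

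The Hoxd8 region (10.9 and 11.7 against 17.9 and 14.9) and the Hoxc6 block (10.9 and 7.58 against 20.2 and 20.3) had higher fold enrichment in both PS libraries. Relative to the library median their differences were -0.54 (limma adjusted p = 0.0761) and 0.08 (adjusted p = 0.790). The centring matters here. The median difference over all regions was -0.17 with centring and 0.91 without it, and that of the 7 Hox regions was -0.97 and 0.10. Without centring, added after seeing the data, 1 of 7 was called, the Hoxc6 block, which was higher in PS by 1.16 (adjusted p = 0.000163; 71.5% of all regions were called). With quantile normalization 1 of 7 was called, Hoxd9, which was lower by -1.06 (adjusted p = 0.0378; 6.27% of all regions). Leaving out c-Kit+ KO replicate 2 leaves 1 library in that group. The median difference was then -0.91 for 9 Hox regions and -0.20 for all 16882 regions.

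From PS to RS, the Hoxc6 block fell. It had 20.2 and 20.3 in PS and 10.2 and 7.03 in RS, means of 20.2 ± 0.0354 and 8.60 ± 2.22 (SD, n = 2), and the centred log2 difference was -1.07 (SE 0.197, limma adjusted p = 0.0100). It was the only one of 11 Hox regions tested that was called (20.2% of all 21329 regions were, 7.79% lower and 12.4% higher). Without PS replicate 2, 0 of all 26558 regions were called, 6923 had an unadjusted p under 0.05, and the difference at the block was -1.20 (adjusted p = 0.159). The median difference was 0.00 for the 11 Hox regions and -0.08 for all regions. Hoxd9 (10.3 and 11.7 against 7.82 and 5.95) and the Hoxd3 intron region (9.53 and 12.8 against 7.43 and 4.87) did not overlap between the stages, at centred differences of -0.49 (adjusted p = 0.102) and -0.68 (adjusted p = 0.0548). Without centring, 3 of 11 were called, these 2 and the Hoxc6 block, where 27.4% of all regions were called.

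In RS, 6 Hox promoters were called in both libraries (16.7%; 51.5% of all genes): Hoxa4, Hoxb4, Hoxb9, Hoxd3, Hoxd8 and Hoxd9. Of 51 Hox regions, 5 (9.80%, against 8.99% of all regions) were called in both PS libraries and in neither RS library, at Hoxb5, Hoxb5 with Hoxb6, Hoxc5 with Hoxc6, Hoxd3 and Hoxd13. None was called in both RS libraries only, against 7.82% of all regions.

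Across the 4 groups of knockout libraries, adult cells (PS and RS) were compared with spermatogonia (Thy1+ and c-Kit+). Each side pooled different kinds of cell, and the fit had no term for the kind. The SD and SE therefore include differences between the kinds. Of 4 Hox regions called in all 8 libraries, 3 were lower in adult cells relative to the library median (22.4% of all 10287 regions were lower, 9.85% were higher and 32.3% were called either way). The merged Hoxd9 region had means of 12.8 ± 2.73 and 8.95 ± 2.57 (SD, n = 4), a centred log2 difference of -1.22 (SE 0.146, limma adjusted p = 0.000143). Hoxd3 had 11 ± 3.48 and 8.53 ± 1.91, a difference of -1.02 (SE 0.138, adjusted p = 0.000260). Hoxd8 had 13.6 ± 4.46 and 13.8 ± 3.86, a difference of -0.65 (SE 0.162, adjusted p = 0.00869). The Hoxc6 block differed by -0.46 (adjusted p = 0.108). In all 4 regions the fold enrichments of single libraries overlapped between the stages. Without centring 0 of 4 were called (37.4% of all regions were), the median of the 4 was -0.16 beside 0.56 over all regions, and Hoxd8 was at 0.03.

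Of 90 Hox regions seen in these 8 libraries, 3 (3.33%, against 5.31% of all regions) were called in all 4 adult libraries and in no spermatogonia library of the knockout: at Hoxb9, at the far end of Hoxd3 and upstream of Hoxd1. No region showed the reverse, against 0.0562% of all regions.

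**Figure D5:**
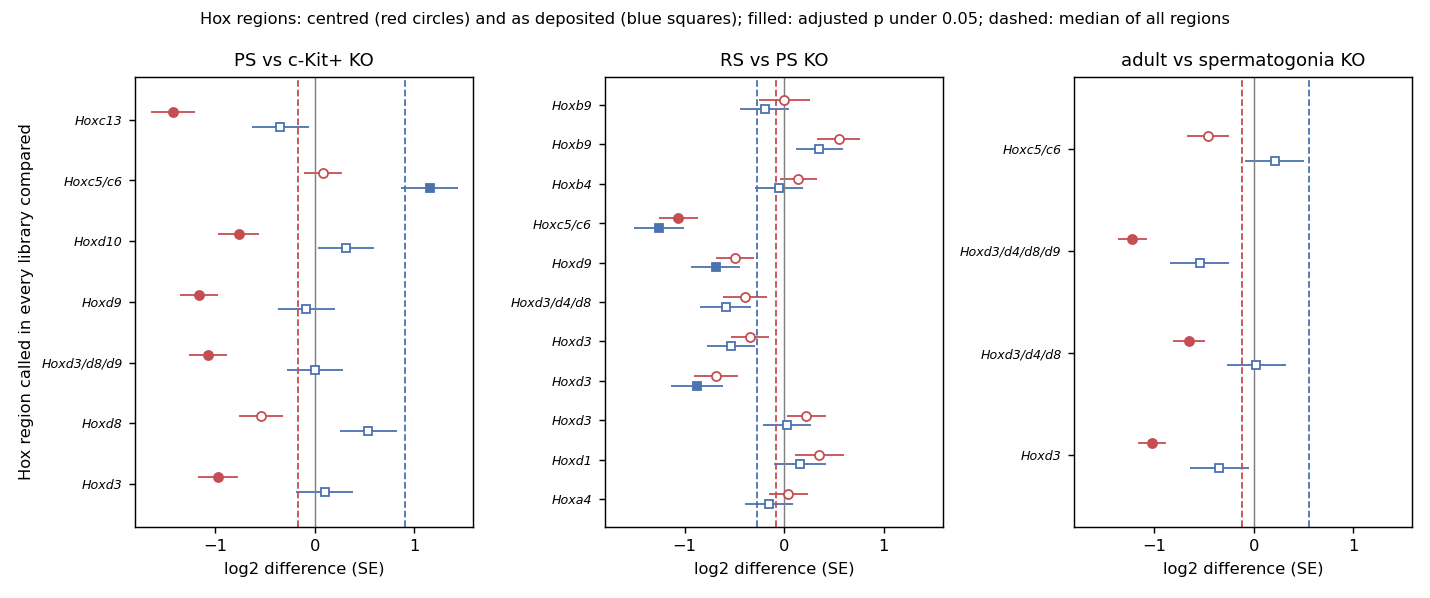
Log2 difference (x axis, with SE bars) of each Hox region tested in 3 knockout comparisons, centred on the library median (red circles) and not centred (blue squares), filled where the limma adjusted p was under 0.05, with dashed lines at the medians of all regions. In PS against c-Kit+ KO the centred HoxD points lie between -1.16 and -0.54, left of the median of all regions (-0.17), while the Hoxc6 block lies at 0.08.

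Most cofactors and regulators of Hox genes had promoter peaks throughout. Of 9 cofactor genes, 6 (66.7%) had a promoter peak in all 12 libraries and 0 in none, against 32.6% and 37.5% of all genes. Pbx4, the Pbx gene best known from the testis, had 29.0 and 33.6 in PS and 21.9 and 19.5 in RS, 7.09 and 5.12 in Thy1+ KO and 4.66 in c-Kit+ KO replicate 2, so all adult values were above all spermatogonia values. Of 19 regulators of Hox expression (Polycomb and Trithorax members, retinoic acid receptors, Cdx factors), 12 (63.2%) were called in all 12 libraries. Cdx1, Cdx2, Cdx4 and Cyp26b1, an enzyme that breaks down retinoic acid, were called in none. Of 17 flanking and ParaHox genes scored, 6 (35.3%) were called in all libraries, near the share of all genes, and 8 in none, among them Evx1 and Evx2, the homeobox genes next to HoxA and HoxD. Of 31 scored homeobox genes elsewhere in the genome that are known Polycomb targets, 0 were called in all libraries, 17 (54.8%) in none, 0 to 2 per spermatogonia library and 5 to 9 per adult library.

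The number of marker promoters called differed between libraries, for other testis cells and for germ cells alike. Of 27 promoters of Sertoli, Leydig, peritubular, macrophage and endothelial markers, 15 were called in Thy1+ KO replicate 1 (summed fold enrichment 132.0) and 10 in its replicate (71.0). The other 6 spermatogonia libraries had 6 to 14 (43.7 to 96.5), and the 4 adult libraries had 15 to 18 (86.0 to 158.0). All 5 peritubular markers were called in Thy1+ KO replicate 1, 4 in Thy1+ KO replicate 2 and 1 to 3 in the other libraries. The Sertoli (4) and Leydig (2) counts of Thy1+ KO replicate 1 lay within those of the other spermatogonia libraries (2 to 6 and 1 to 4). Macrophage markers were at 2 and 1 in Thy1+ KO, at 0 in each other spermatogonia library, at 2 and 1 in PS and at 4 in each RS library. Endothelial markers were at 2 in each Thy1+ KO and adult library and at 1 in each other library. Germ cell, spermatogonia and spermatocyte markers were at 3, 5 and 3 in Thy1+ KO replicate 1 and at 1, 1 and 0 in its replicate. Of all genes, 36.7 to 39.4% were called in both libraries of a spermatogonia group, and 51.2 and 51.5% in PS and RS. The Leydig markers Hsd3b1 and Cyp17a1 had no promoter peak in any library. Of the other Leydig markers, Nr5a1 had one in 12 libraries, Star in 9, Cyp11a1 in 5 and Insl3 in 3. All 5 spermatid markers were called in the 4 adult libraries, PS included, and in no spermatogonia library. The part of other cells in the Hox signal was not tested.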

How the data were processed

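The authors' deposited peak tables were used: 1 table for each of 12 H3K27ac and 16 input libraries of mouse testis cells. Per the submitters' processing notes, Bowtie, MACS2 and the mm10 genome were used, and their versions are not given in the sources used here. Per the file headers, each deposited peak has a pileup height (a signal), a fold enrichment (a ratio), a −log10 p and a −log10 q value, and the genes it was listed under. The authors' tables show 1 background height per library, and they hold no read counts.

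The members and gene lists were chosen with earlier results of these data known, and 1 further gene that the naming rule selects is not reported here. Groups came from the labels. Promoters, call patterns and covered length were counted as described in the report, with Python 3.11.15 (pandas 2.3.3, numpy 2.4.6, matplotlib 3.10.9). Peaks of the libraries compared were merged where they overlapped by at least 1 base. Regions called in every library were tested with limma 3.58.1 in R 4.3.3 (lmFit and eBayes) on log2 fold enrichment, with Benjamini-Hochberg adjustment and a threshold of 0.05. The code was tested on simulated data. Values in every library are given for the 4 genes of each cluster with the highest mean promoter enrichment (uncalled as 0), for up to 5 called regions per comparison, and for promoters called in both libraries of 1 genotype and neither of the other. Genes named beside these were chosen after their values were seen. Alternatives were quantile normalization, uncalled libraries set to the lowest value, stricter peaks (−log10 q of at least 5), joining within 1000 bases, promoter windows of 500 and 2000 bases, the 17877 strongest peaks of each library, a replicate block and leaving out each library. Runs without centring, and on height over background, were chosen after seeing the data. Of 17923 symbols listed alone, 17839 (99.5%) matched RefSeq.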

Additional observations from a re-analysis of the deposited data

How the results depend on the processing

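The counts of Hox regions with an adjusted p under 0.05 by limma stayed at 0 in both genotype comparisons, in their joint fit and in its interaction under the alternatives run, with 1 exception. Thy1+ KO against WT gave 1 of 5 on height over background without centring, where 16.6% of all regions were called. For c-Kit+ against Thy1+ KO the count was 1 of 20 with uncalled libraries set to the lowest fold enrichment (241 of all 21024 regions). It was 2 of 6 on height over background without centring (48.5% of all regions). For PS against c-Kit+ KO it was 1 of 7 with quantile normalization (6.27% of all regions) and 2 of 29 with uncalled libraries filled (2770 of all 40536). It was 2 of 4 with stricter peaks (2013 of 8139). Without centring it was 1 of 7 (71.5%), and 1 of 7 on height over background without centring (54.6%). With 1 library left out, a group holds 1 library, and the centred differences of the 5 regions called lay between -1.62 and -0.42. For RS against PS it was 3 of 11 without centring (27.4% of all regions) and 2 of 11 on height over background without centring (16.9%). With 1 library left out there, the centred difference at the Hoxc6 block lay between -1.20 and -0.97. For adult against spermatogonia KO it was 12 of 39 with uncalled libraries filled (11 lower and 1 higher, where 11104 of all 59684 regions were called). It was 0 of 4 without centring (37.4% of all regions) and 1 of 4 on height over background without centring (15.1%). With 1 library left out it was 3 to 4 of 4 or 5, where 2638 to 3329 of all regions were called. Filling adds regions, and stricter peaks leave fewer; otherwise the cause was not tested. Without centring, the PS against c-Kit+ KO difference changed sign at Hoxd10 (0.31), at the region of Hoxd9, Hoxd8 and Hoxd3 (0.0039) and at Hoxd3 (0.10), as did adult against spermatogonia at Hoxd8 (0.025). On height over background without centring, Hoxd10 was at 0.17.

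After centring, deviations of same-numbered libraries correlated at -0.00791 to 0.166. Centring removes shifts of a whole library, and replicate 1 held more peaks than replicate 2 in every group. The labels do not say whether same-numbered libraries share an animal or day, and these correlations cannot settle it. In a fit with a block for the replicate number, the counts stayed at 0 in the 6 comparisons that had 0. They were 5 of 7 for PS against c-Kit+ KO (3705 of all 12501 regions) and 1 of 11 for RS against PS (4456 of 21329). For adult against spermatogonia the count was 3 of 4 (3151 of 10287). These Hox counts were the same without the block.

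With stricter peaks, promoters called in both libraries were 3 in c-Kit+ WT and 4 in Thy1+ KO. With the same number of strongest peaks they were 4 in Thy1+ KO, 4 in PS and 2 in RS. The shares of all genes under these settings are not given in this report, so these counts describe the settings only. With 1 library of a group left out, only the other remains, so the left-out ranges in this paragraph are single-library values. Promoters called in single libraries were 5 to 10 in Thy1+ WT, 5 to 7 in c-Kit+ WT and 7 to 19 in Thy1+ KO. They were 4 to 5 in c-Kit+ KO, 8 to 13 in PS and 6 to 7 in RS. Mean Hox peaks per library with stricter peaks were 7 in Thy1+ WT, 8 in c-Kit+ WT, 20 in Thy1+ KO, 8 in c-Kit+ KO, 19 in PS and 10 in RS. With the same number of strongest peaks they were 13.5 in c-Kit+ WT, 22 in Thy1+ KO, 7.5 in PS and 6 in RS. Left-out ranges were 15 to 22, 14 to 28, 24 to 68, 16 to 27, 36 to 50 and 18 to 35 in the order of the report. Covered length was 6.01 kb in Thy1+ WT and 20.1 kb in PS with stricter peaks and 14.5 kb in PS with the strongest peaks. Left-out ranges were 6.93 to 10.4, 8.64 to 14.4, 11.7 to 37.0, 7.97 to 15.0, 25.2 to 26.1 and 8.38 to 19.4 kb.

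Regions called in every library of 1 group only changed as follows with stricter peaks, the strongest peaks, and 1 library left out. Leaving out a library loosens the rule, so those last counts could hardly fall. The shares of all regions under these alternatives are not given in this report. The counts therefore describe the settings and are no result about Hox regions. Thy1+ KO only, against WT: 3, 2, and 6 to 43. Thy1+ WT only: 0 to 4 left out. c-Kit+ WT only, against KO: 0, 0, and 1 to 7. c-Kit+ KO only: 0 with the strongest peaks, and 1 to 4. In WT, c-Kit+ only against Thy1+: 1, 1, and 2 to 9, and 0 with peaks within 1000 bases joined. Thy1+ only: 1 with the strongest peaks, and 0 to 10. In KO, Thy1+ only against c-Kit+: 2, 1, and 4 to 46. c-Kit+ only: 0 to 2 left out. PS only against c-Kit+ KO: 9, 0, and 14 to 27. c-Kit+ KO only: 1 with the strongest peaks, and 0 to 4. PS only against RS: 1 with the strongest peaks, and 6 to 19. RS only: 0 to 4 left out. Adult only: 1, 0, and 3 to 7. The depth is unknown, so an uncalled region is not shown to lack acetylation.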
